A study of Mus musculus with 8 samples.

Results

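The genes of antigen presentation and of the interferon response were followed across the 4 main cell groups of the mouse ascending thoracic aorta. The set was chosen by name, with earlier results of these data known, and held 41 genes of the 32285 in the matrix. Each of the 41 symbols was found with 1 identifier. The study collected ascending thoracic aortas of 3 young wild-type mice and measured single cells by droplet RNA sequencing together with hashtag antibodies. The tissue had been digested with collagenase and elastase and depleted of dead cells. Its 4 gene expression and 4 hashtag libraries were pooled in 1 matrix with 1 barcode suffix, so cells could not be traced to a library and barcodes shared between libraries could not be counted. Hashtags 1, 2 and 3 marked mice of 11, 12 and 13 weeks, and each hashtag was read as 1 animal. No treatment or altered genotype was part of the design, and the comparisons below are between cell groups of the same animals.

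Cell groups were defined by genes outside the set. Of 48467 barcodes, 9939 had at least 500 genes, at most 20% mitochondrial UMIs (unique molecules counted) and fewer than 10 haemoglobin UMIs. Smooth muscle cells (SMC) had at least 1.5% of UMIs in Acta2, Tagln and Myh11, and 6722 barcodes met this alone. Fibroblasts had at least 0.3% of UMIs in Dcn (1395 barcodes), endothelial cells at least 3 UMIs of Pecam1, Cdh5 and Gpihbp1 (699 barcodes), and macrophages at least 3 UMIs of C1qa, C1qb and C1qc (74 barcodes). A further 426 barcodes met more than 1 rule and were left out, and 623 met none. All 6 SMC, 6 fibroblast, 6 endothelial and 7 macrophage marker genes were detected in the group of that name. The macrophage group also held SMC marker transcripts at 4079 UMIs per 1000000 (CPM), ranging from 2641 to 5858 over the hashtags, and the endothelial group at 4248 CPM. An alternative that limited these transcripts in the other groups is given with the processing below, and their part in the results was not tested further. Dendritic cell markers reached 110 CPM in the macrophage group, with Flt3, Xcr1, Ccr7 and Clec9a at 0.

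MHC class I molecules consist of a heavy chain and beta-2 microglobulin and show peptides from inside the cell to cytotoxic T cells. The peptides are cut by the proteasome, whose catalytic chains are exchanged for immunoproteasome chains under interferon, and are carried into the endoplasmic reticulum by the Tap transporter. MHC class II molecules show peptides from endosomes to helper T cells and are normally made by professional antigen-presenting cells such as macrophages. Interferons act through Jak kinases and Stat factors, which bind interferon-stimulated response elements (ISRE) or gamma-activated sites (GAS) in the promoters of their target genes. In the arterial wall, class I is found on all nucleated cells, and endothelial cells are known to respond strongly to interferon gamma.

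Promoter sequences were not used to choose the set or the cell groups. The set was, however, chosen by name for the interferon response, so a higher share of ISRE matches than over all genes can follow from that choice. RefSeq promoters (GRCm38.p6, 250 bases before to 50 bases after the start site) were matched for 31 of the 41 genes. The ISRE was searched on both strands as GAAA, any 2 bases and GAAA, and in a shorter form as GAANNGAAA. The first form stood in the promoters of 15 of the 31 genes (48.4%), against 3.99% of all 27025 genes in the table. The second form stood in 8 of 31 (25.8%), against 8.68% of all genes, and 4 genes (Igtp, Isg15, Psme1 and Stat2) held both, so the forms overlap in part. GAS was searched as TTCNNNGAA and was found in 7 of 31 (22.6%, all genes 9.55%). The Y box of MHC promoters, CCAAT, was found in 17 of 31 (54.8%, all genes 41.1%). A match is a description of the letters and was not tested as a binding site. The next lines give stretches around the first ISRE match, 5′ to 3′ on the strand of the gene, with every match of the form in capitals; every printed match lies upstream of the annotated start site. The class I heavy chains H2-K1, H2-D1 and H2-Q4 come first because these 3 share nearly the same stretch, at chr17:34000399-34000467 (minus strand), chr17:35262914-35262982 (plus) and chr17:35379434-35379502 (plus).
H2-K1: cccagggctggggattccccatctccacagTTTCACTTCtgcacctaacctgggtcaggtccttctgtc
H2-D1: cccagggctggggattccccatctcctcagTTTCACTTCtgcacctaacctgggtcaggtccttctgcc
H2-Q4: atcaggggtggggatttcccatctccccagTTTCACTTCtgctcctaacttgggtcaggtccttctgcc
The class I light chain gene B2m, at chr2:122147518-122147587 (plus), carried the longer form.
B2m: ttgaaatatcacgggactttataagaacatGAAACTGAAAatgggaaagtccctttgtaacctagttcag
The interferon-induced genes Isg15 (chr4:156200857-156200926, minus), Ifit1 (chr19:34640755-34640824, plus), Bst2 (chr8:71537563-71537632, minus), Gbp2 (chr3:142620574-142620643, plus) and Irgm1 (chr11:48871411-48871480, minus) follow.
Isg15: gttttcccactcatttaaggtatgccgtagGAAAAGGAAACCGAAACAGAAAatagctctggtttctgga
Ifit1: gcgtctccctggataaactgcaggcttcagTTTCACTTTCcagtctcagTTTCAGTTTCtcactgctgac
Bst2: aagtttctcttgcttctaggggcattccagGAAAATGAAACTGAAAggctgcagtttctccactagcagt
Gbp2: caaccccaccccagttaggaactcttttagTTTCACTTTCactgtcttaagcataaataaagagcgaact
Irgm1: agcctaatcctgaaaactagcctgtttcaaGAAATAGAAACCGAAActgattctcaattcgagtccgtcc
The matches began 104 bases before the start site in Ifit1, 78 in Isg15, 59 in Gbp2 and 30 in Irgm1. The 12 genes of the set on chromosome 17 lay between positions 33919478 (Tapbp) and 36032701 (H2-T23) and included the 4 class I heavy chains, Tap1, Tap2, Psmb8, Psmb9 and 3 class II chains.

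The groups held 49861013 UMIs in SMC (median 7316 per barcode), 6761675 in fibroblasts (4531), 2435330 in endothelial cells (2599) and 254009 in macrophages (3044). Levels over all barcodes of a group are given as CPM with an exact Poisson 95% interval in parentheses, which covers counting error only. Barcodes with fewer than 500 genes (3342) served as a background; 55.5% of their UMIs were haemoglobin, so red cell transcripts were a large part of them. For tests, UMIs were summed over barcodes with a single hashtag (15 to 524 barcodes and 47739 to 4073254 UMIs per sum), which gave 3 samples per group. Hashtag UMIs of SMC and fibroblasts lay beside the background, and how fully their samples separate the animals was not tested. To the extent that these samples mix animals, the SE and p-values below do not measure the spread between animals.

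Of the 41 genes, 40 had their lowest level in SMC. The highest level was in endothelial cells for 24, in macrophages for 15, in fibroblasts for 1 (Ifitm3) and in SMC for 1 (Ifi27). The lowest and highest groups were not counted over all genes, so whether these counts are particular to the set is not known. For Nlrc5, Ciita, H2-Aa and H2-Ab1, for example, the intervals of SMC and fibroblasts overlapped. In the edgeR test over 8302 genes, 39 of the set could be tested, and Nlrc5 and Cxcl10 were too low. Fibroblasts were higher than SMC for 32 of the 39 and lower for 0, where 20.9% of all genes were called higher and 18.0% lower; the median log2 difference was 1.62 in the set and 0.03 over all genes tested. Endothelial cells were higher than SMC for 36 and lower for 1 (all genes 26.1% and 25.5%), with medians of 2.64 and 0.00. Endothelial cells were higher than fibroblasts for 24 and lower for 1 (all genes 18.6% and 19.4%), with medians of 0.80 and 0.01. This last count was the least stable: it was 12 higher and 0 lower without hashtag 3, 13 higher with a stricter cell filter, and 16 higher with DESeq2. Macrophages were higher than endothelial cells for 5 and lower for 11 (all genes 9.59% and 13.8%), with medians of -0.35 and -0.28, and without hashtag 3 the lower count was 6.

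**Figure D1:**
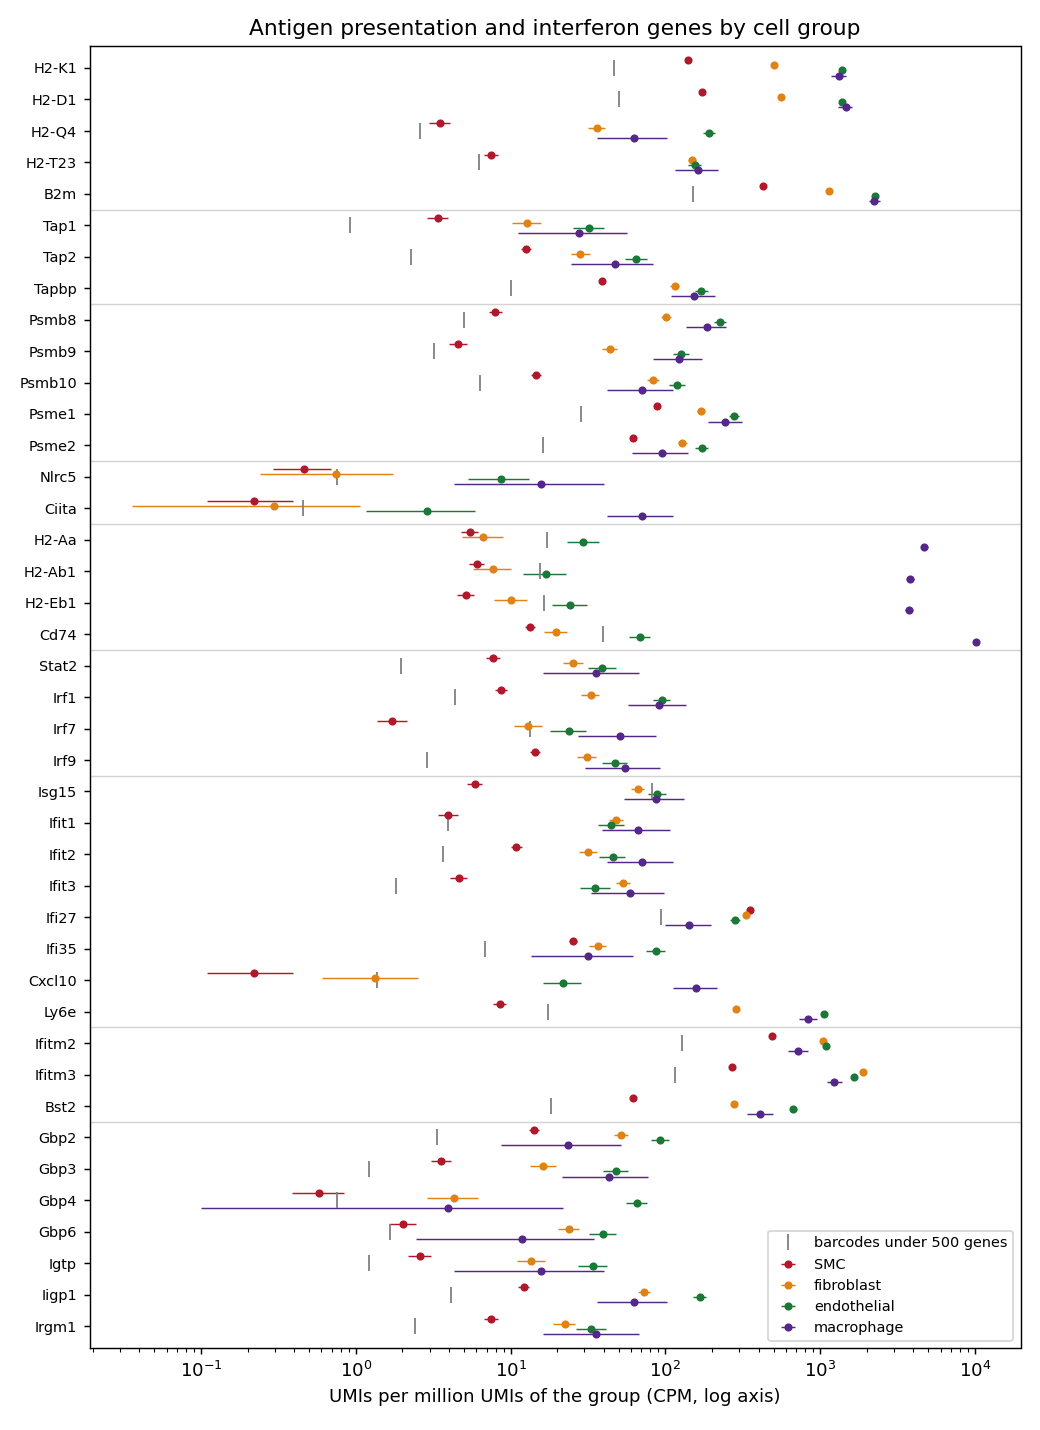
Level of each of the 41 genes in the 4 cell groups, as CPM on a log axis; points are values over all barcodes, bars are exact Poisson 95% intervals, grey ticks are barcodes with fewer than 500 genes, and grey lines separate roles. SMC hold the lowest of the 4 points for 40 genes, and the class II chains of macrophages stand at 3744 CPM or above while no other group passes 68.2 CPM.

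**Figure D2:**
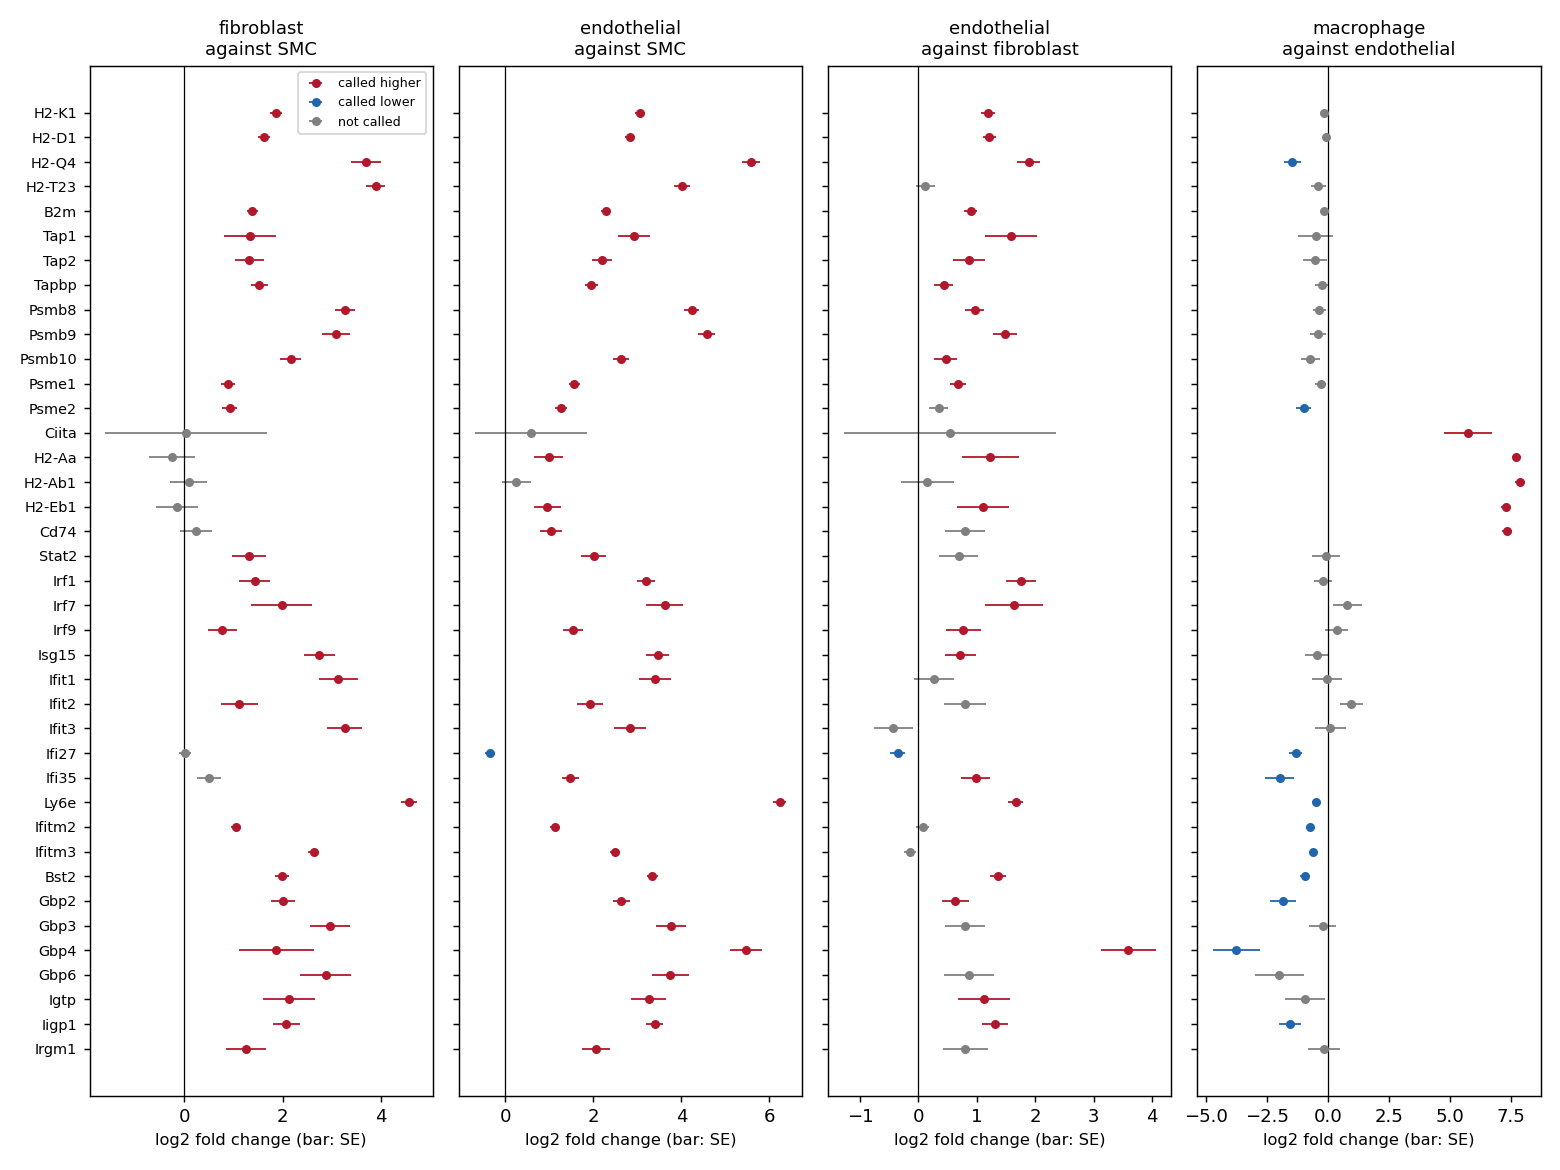
Log2 fold changes from edgeR with their standard errors for the 39 genes tested, in 4 comparisons between cell groups of the same 3 hashtag samples; red and blue mark genes called higher and lower at an adjusted p under 0.05. Nearly all points lie to the right of 0 against SMC, and in the comparison of macrophages with endothelial cells Ciita and the class II chains stand apart on the right.

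The class I chains were lowest in SMC, higher in fibroblasts and highest in endothelial cells and macrophages. H2-K1, a classical heavy chain, stood at 148, 157 and 157 CPM in the SMC samples of hashtags 1, 2 and 3. In fibroblasts it was 476, 735 and 543 CPM, in endothelial cells 1114, 1511 and 1577 CPM, and in macrophages 964, 1836 and 1288 CPM. SMC, fibroblast and endothelial samples did not overlap, whereas the macrophage samples lay on both sides of the endothelial ones. The log2 difference of H2-K1 was 1.86 ± 0.12 (SE) between fibroblasts and SMC, 3.05 ± 0.12 between endothelial cells and SMC (8.29-fold, adjusted p = 1.66e-28, edgeR, higher in 3 of 3 samples) and 1.19 ± 0.12 between endothelial cells and fibroblasts. H2-D1, the other classical chain, followed the same order at 173 (169 to 176), 561 (543 to 579), 1384 (1338 to 1432) and 1457 (1312 to 1613) CPM from SMC to macrophages. B2m, the light chain that all class I molecules share, rose less, from 426 CPM in SMC to 1133 in fibroblasts and 2269 in endothelial cells (log2 2.28 ± 0.11 against SMC). H2-K1, H2-D1 and B2m were not called between macrophages and endothelial cells.

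The nonclassical heavy chains differed between groups in another order. H2-Q4, a chain of the Q region, had 3.68, 4.35 and 2.99 CPM in the SMC samples, 50.1, 36.7 and 57.7 in fibroblasts, 154, 168 and 256 in endothelial cells and 83.8, 105 and 54.6 in macrophages. It was higher in endothelial cells than in SMC by 5.57 ± 0.21 (log2, 47.7-fold) and than in fibroblasts by 1.89 ± 0.20. The macrophage samples lay below all endothelial samples (log2 -1.46 ± 0.35, adjusted p = 0.00114, edgeR), but this call was lost without hashtag 3 (adjusted p = 0.16). H2-T23, a chain that presents to receptors of natural killer cells, was 9.57, 7.70 and 10.3 CPM in SMC and 150, 129 and 145 CPM in fibroblasts. It was 156, 178 and 158 CPM in endothelial cells, just above the fibroblast samples in CPM but overlapping them after TMM scaling (log2 0.12 ± 0.16, not called). H2-T23 was 3.89 ± 0.19 higher in fibroblasts than in SMC. Class I heavy chains are near-identical in parts of their sequence, and how reads were split between them is uncertain.

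Transport and loading followed the class I chains. Tap1, which forms the peptide transporter with Tap2, had 3.39 CPM in SMC (2.90 to 3.94), 12.7 (10.2 to 15.7) in fibroblasts, 32.0 (25.3 to 40.0) in endothelial cells and 27.6 (11.1 to 56.8) in macrophages. Tap2 had 12.6, 28.3, 64.9 and 47.2 CPM in the same order. Tapbp, or tapasin, which bridges the transporter and the class I chain, had 38.9, 115, 170 and 154 CPM. All 3 were called higher in fibroblasts than in SMC and in endothelial cells than in SMC, and none was called between macrophages and endothelial cells. The fibroblast call of Tap1 was lost without hashtag 1 or hashtag 3, with hashtags called by ratio, with stricter gates and without the filter on low counts.

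The immunoproteasome chains rose between groups while the constitutive chains that they replace did not. Psmb8, which takes the place of Psmb5, had 12.3, 8.70 and 11.7 CPM in the SMC samples, 93.6, 129 and 113 in fibroblasts, 201, 238 and 245 in endothelial cells and 126, 210 and 218 in macrophages. The SMC samples stood apart from all others, by 4.24 ± 0.17 (log2) against endothelial cells and 3.27 ± 0.20 against fibroblasts. Psmb9, which takes the place of Psmb6, was higher in endothelial cells than in SMC by 4.57 ± 0.20 and than in fibroblasts by 1.48 ± 0.21. Psmb10, the partner of Psmb7, was 2.63 ± 0.18 higher in endothelial cells than in SMC. Psmb5 was lower in fibroblasts (-0.39 ± 0.14) and endothelial cells (-0.49 ± 0.14) than in SMC, Psmb6 lower in endothelial cells (-0.43 ± 0.12) and Psmb7 lower in fibroblasts (-0.60 ± 0.18).

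As a share of each pair's UMIs, Psmb8 made up 4.65% (4.21 to 5.12, exact binomial 95% interval) in SMC, 44.4% (41.9 to 46.9) in fibroblasts, 63.4% (60.1 to 66.6) in endothelial cells and 72.3% (59.8 to 82.7) in macrophages. The share of Psmb9 was 2.17%, 20.3%, 42.8% and 60.8% in that order. Between macrophages and endothelial cells Psmb8 and Psmb9 were not called, whereas Psmb5 and Psmb6 were lower in macrophages (2.84- and 2.49-fold). The higher shares of macrophages thus do not show more of the immunoproteasome chains. The share of Psmb10 was 14.0% in SMC and then level, at 59.9% in fibroblasts, 62.4% in endothelial cells and 58.1% (39.1 to 75.5) in macrophages. In each of the 3 hashtags the Psmb8 share was higher in endothelial cells (63.6%, 66.5% and 65.7%) than in fibroblasts (43.6%, 51.0% and 47.7%) and lowest in SMC (7.54%, 4.92% and 7.05%). The activator chains Psme1 and Psme2, which open the proteasome for peptides, differed less: Psme1 was higher than in SMC by 0.89 ± 0.14 in fibroblasts and 1.56 ± 0.12 in endothelial cells, and Psme2 by 0.92 ± 0.15 and 1.27 ± 0.13.

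**Figure D3:**
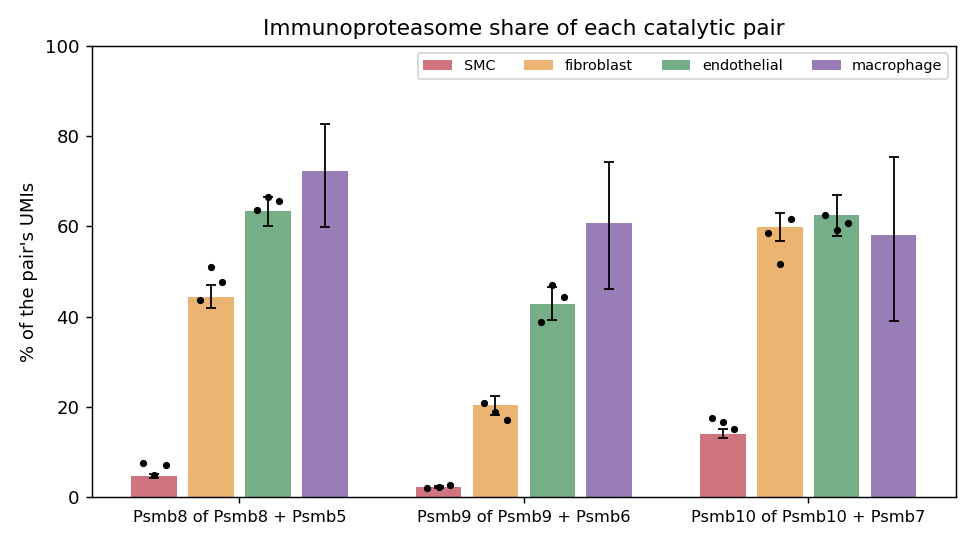
Share of UMIs of each catalytic pair that belong to the immunoproteasome chain, in percent; bars are all barcodes of a group with exact binomial 95% intervals, and dots are the 3 hashtag samples (not drawn for macrophages, which had 25 or fewer UMIs of a pair per hashtag). The pooled SMC bars stay at 14.0% or below in all 3 pairs, and the Psmb8 share steps up to 63.4% in endothelial cells.

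The transactivators were scarce. Nlrc5, which drives class I genes, had 23 UMIs in SMC (0.461 CPM, 0.292 to 0.692), 5 in fibroblasts (0.739, 0.240 to 1.73), 21 in endothelial cells (8.62, 5.34 to 13.2) and 4 in macrophages (15.7, 4.29 to 40.3). Ciita, which drives class II genes, had 11, 2, 7 and 18 UMIs, and the 18 UMIs in macrophages made 70.9 CPM (42.0 to 112). Its level in macrophages was 62.8, 70.0 and 76.4 CPM in the 3 hashtags, against 0, 0 and 3.01 CPM in endothelial cells, and it was called higher in macrophages (adjusted p = 5.60e-06, edgeR).

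Class II chains marked the macrophages. H2-Aa, the alpha chain, had 5677, 3218 and 5969 CPM in the macrophage samples and 11.4, 15.5 and 37.6 CPM in the endothelial samples (log2 7.73 ± 0.20, adjusted p = 1.21e-35, edgeR). H2-Ab1 and H2-Eb1, the beta chains, were 7.88 ± 0.20 and 7.31 ± 0.19 higher in macrophages. Cd74, the invariant chain that guides class II to endosomes, had 11120, 7660 and 12450 CPM (log2 7.33 ± 0.20). A UMI of the 4 chains was seen in 71 of 74 macrophage barcodes (95.9%), and 59 of them held 10 or more. H2-DMa and H2-DMb1, which load peptides onto class II, and Ctss, which trims the invariant chain, were higher as well, at 279.5, 173 and 1047 CPM in macrophages against 5.75, 8.62 and 0.821 in endothelial cells.

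In SMC and fibroblasts the summed level of the class II chains lay below that of the background barcodes, and in endothelial cells above it. At least 1 UMI was seen in 12.3% of SMC barcodes, 14.3% of fibroblasts and 18.9% of endothelial cells, against 12.5% of barcodes with fewer than 500 genes, at median depths of 7316, 4531, 2599 and 1918 UMIs. The summed level was 29.9 CPM in SMC, 43.9 in fibroblasts and 139 (124 to 154) in endothelial cells, against 88.5 in the background and 935 in the 623 barcodes of no group. None of the 4 chains was called between fibroblasts and SMC. H2-Aa, H2-Eb1 and Cd74 were called higher in endothelial cells than in SMC, by 0.98 to 1.03 (log2); All 3 lost the call with hashtags called by ratio, H2-Aa and H2-Eb1 also without hashtag 3 and with stricter gates, and H2-Aa and Cd74 also with DESeq2. H2-Aa further lost it without the replicate block. H2-Aa and Cd74 samples of the groups overlapped. A few barcodes held much of the signal, since 6 endothelial barcodes carried 33.7% of the class II UMIs of that group. The SMC barcodes that entered the test had more of it than the whole group, with 58.2, 50.9 and 72.9 CPM in the 3 hashtags.

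The interferon transcription factors were each higher in endothelial cells than in SMC. Irf1, a target and mediator of interferon gamma, had 11.8, 7.03 and 10.9 CPM in the SMC samples, 25.8, 36.7 and 23.5 in fibroblasts and 97.3, 87.1 and 113 in endothelial cells. The 3 groups did not overlap, and Irf1 was 3.19 ± 0.20 (log2) higher in endothelial cells than in SMC and 1.76 ± 0.25 higher than in fibroblasts. Irf7, which amplifies type I interferon production, had 1.72 CPM in SMC (1.38 to 2.13), 13.0 (10.4 to 16.0) in fibroblasts, 23.8 (18.1 to 30.8) in endothelial cells and 51.2 (27.2 to 87.5) in macrophages; the background barcodes also held 13.4 CPM. Stat2 and Irf9, which are parts of the factor that binds the ISRE, were higher in endothelial cells than in SMC by 2.00 ± 0.28 and 1.53 ± 0.23. None of the 4 was called between macrophages and endothelial cells.

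Isg15 and the IFIT genes were higher in fibroblasts and in endothelial cells than in SMC, and of these 4 genes Isg15 was called between endothelial cells and fibroblasts. Between fibroblasts and SMC the call of Ifit2 was lost without hashtag 2 and that of Ifit3 with hashtags called by ratio. In macrophages of hashtag 1, Isg15 and Ifit1 had 0 UMIs. Isg15, a ubiquitin-like modifier, had 7.61, 8.37 and 4.89 CPM in the SMC samples, 58.1, 36.7 and 42.7 in fibroblasts and 50.3, 114 and 91.7 in endothelial cells. Endothelial and fibroblast samples overlapped, and the call between them (log2 0.72 ± 0.26) was lost without hashtag 2 and without hashtag 3. That call was also lost with DESeq2, with a stricter cell filter and with stricter gates. Ifit1, which binds viral RNA, had 4.66, 4.69 and 1.90 CPM in SMC, 33.9, 34.1 and 34.2 in fibroblasts and 29.2, 69.7 and 37.6 in endothelial cells, and was not called between the latter groups (0.27 ± 0.35). Ifit3, which stabilises Ifit1, had 66.2, 15.7 and 47.0 CPM in fibroblasts and 22.7, 52.2 and 34.6 in endothelial cells, again overlapping and not called. Ifit2 had 10.9 CPM in SMC, 31.7 in fibroblasts and 45.6 in endothelial cells. Reads of Ifit1 and Ifit3 could be shared with their close copies, so their levels are uncertain to that extent.

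Ifi27, a small interferon-induced protein, ran against the rest. It had 325, 356 and 334 CPM in the SMC samples, 360, 344 and 344 in fibroblasts, 308, 306 and 254 in endothelial cells and 105, 192 and 87.3 in macrophages. SMC and fibroblast samples overlapped, endothelial samples lay below both, and macrophage samples lay lowest. Its log2 difference was -0.34 ± 0.11 between endothelial cells and SMC (adjusted p = 0.00974, edgeR), which lost its call without hashtag 3, and -1.32 ± 0.27 between macrophages and endothelial cells. The latter call was lost with stricter gates. Ifi35, a binding partner of Nmi, was 1.48 ± 0.19 higher in endothelial cells than in SMC and was not called between fibroblasts and SMC.

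Ly6e, a surface protein of the Ly6 family that limits virus entry, showed the largest difference of the set between endothelial cells and SMC. It had 16.0, 8.70 and 13.9 CPM in the SMC samples, 304, 388 and 282 in fibroblasts, 1048, 1103 and 1081 in endothelial cells and 691, 892 and 840 in macrophages. No samples of SMC, fibroblasts and endothelial cells overlapped, and the log2 difference was 6.23 ± 0.15 between endothelial cells and SMC (75.2-fold, adjusted p = 9.88e-37, edgeR) and 4.57 ± 0.17 between fibroblasts and SMC. The membrane restriction factors were detected in all 4 groups. Ifitm3, which blocks virus fusion in endosomes, had 293, 264 and 261 CPM in SMC, 1718, 1795 and 1690 in fibroblasts, 1402, 1718 and 1865 in endothelial cells and 964, 1329 and 1178 in macrophages. Fibroblast and endothelial samples overlapped for Ifitm3, and neither it nor its relative Ifitm2 was called between them. Bst2, or tetherin, which holds budding virus at the membrane, separated them: 270, 244 and 256 CPM in fibroblasts against 634, 768 and 706 in endothelial cells (log2 1.36 ± 0.14). Ifitm2, Ifitm3 and Bst2 were each lower in macrophages than in endothelial cells, by 0.61 to 0.94 on the log2 scale.

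The interferon-inducible GTPases, which attack vacuoles of intracellular microbes, were all higher in fibroblasts than in SMC and in endothelial cells than in SMC, 7 of 7 in each comparison (all genes 20.9% and 26.1%). The fibroblast call of Gbp4 was lost in 8 of 11 alternatives, among them leaving out any 1 hashtag, that of Irgm1 without hashtag 2 and with hashtags called by ratio, and that of Igtp with hashtags called by ratio. Gbp4 was found mainly in endothelial cells: 159 of its UMIs (65.3 CPM, 55.5 to 76.3) were in that group, against 0.582 CPM in SMC, 4.29 in fibroblasts and 1 UMI in macrophages (3.94 CPM, 0.0997 to 21.9). Per hashtag it had 42.2, 63.9 and 84.2 CPM in endothelial cells and 3.23, 2.62 and 8.55 in fibroblasts, which did not overlap (log2 3.59 ± 0.47, adjusted p = 6.63e-09, edgeR). Iigp1 had 12.3, 18.4 and 12.0 CPM in SMC, 56.5, 65.6 and 57.7 in fibroblasts and 79.5, 209 and 209 in endothelial cells, and was 1.32 ± 0.22 higher in endothelial cells than in fibroblasts. Gbp3, Gbp6 and Irgm1 were not called in that comparison. Against endothelial cells, macrophages were lower for Gbp2, Gbp4 and Iigp1, and each of these 3 calls was lost without hashtag 3. The call of Gbp2 was also lost with stricter gates.

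Cxcl10, a chemokine that attracts T cells, came from very few cells. Its 53 endothelial UMIs (21.8 CPM, 16.3 to 28.5) were in 8 barcodes, 23 of them in 1 barcode. The 40 macrophage UMIs (157 CPM, 113 to 214) were in 5 barcodes, 21 of them in 1. Hashtag 3 held 44 of the endothelial UMIs and 12 of those in macrophages. The related chemokine Cxcl9, outside the set, was spread more widely, with 1134 UMIs in 314 of 699 endothelial barcodes (466 CPM, 439 to 494), against 0.541, 0.739 and 15.7 CPM in SMC, fibroblasts and macrophages. It too was uneven: 1 endothelial barcode held 225 of its UMIs and the top 2 held 322. Hashtags 1, 2 and 3 held 204, 164 and 525 of the endothelial UMIs.

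Barcodes with UMIs of several interferon-induced genes were a minority of each group. Barcodes with at least 3 of 10 interferon-induced genes (Isg15, Ifit1, Ifit2, Ifit3, Irf7, Cxcl10, Rsad2, Oasl2, Usp18 and Rtp4) made up 0.774% of SMC (0.578 to 1.01, exact binomial 95% interval), 9.82% of fibroblasts (8.31 to 11.5), 11.0% of endothelial cells (8.79 to 13.6) and 18.9% of macrophages (10.8 to 29.7). In barcodes with fewer than 500 genes these 10 genes summed to 466 CPM, against 34.6, 322, 476 and 752 CPM in the 4 groups. Haemoglobin, at 55.5% of the UMIs of those barcodes, lowers their value on this scale. Rsad2 alone made up 2331 of the 3072 UMIs of that background sum (354 CPM). Its level was 1.16, 15.2, 137 and 98.4 CPM in the 4 groups, and it gave 334 of the 1159 endothelial UMIs of the 10 genes. The barcodes that met the rule carried 22%, 67.8%, 60.8% and 83.2% of the UMIs of these genes in their groups, a share that the choice of these barcodes raises by itself. With each barcode thinned to 1500 UMIs (16, 26, 29 and 0 shallower barcodes were left out), the shares were 0.0746%, 2.70%, 4.03% and 9.46%, in the same order of groups. In endothelial cells such barcodes were deeper than the group, with a median of 3977 against 2599 UMIs. A stricter cell filter raised the share to 21.6% in endothelial cells and 35.3% in macrophages. In macrophages 0 of 16 barcodes of hashtag 1 met the rule, where the exact upper bound is 20.6%, against 5 of 15 and 5 of 27 in hashtags 2 and 3.

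The 3 hashtag samples differed most in endothelial cells and macrophages, and with 1 hashtag per age these differences have no test. In endothelial cells hashtag 1 had the lowest level for 32 of 41 genes, and hashtags 2 and 3 for 6 and 2. The same count was not made over all genes, so whether it is particular to the set is not known. In SMC the lowest level was spread over the hashtags (12, 15 and 14 genes), as it was in fibroblasts (13, 12 and 13). Median hashtag UMIs of SMC (672) and fibroblasts (660) lay beside the background (704), and 67.3% and 69.5% had no hashtag called. An even spread in these 2 groups therefore cannot show that the animals differed less there. The summed GTPase level of endothelial cells was 277 CPM (237 to 322) in hashtag 1, 551 (489 to 619) in hashtag 2 and 645 (585 to 709) in hashtag 3. In macrophages the 10 interferon-induced genes summed to 3 UMIs in hashtag 1 (62.8 CPM, 13.0 to 184), 37 in hashtag 2 (647 CPM) and 73 in hashtag 3 (797 CPM). Median depth of the endothelial barcodes was 2327, 2643 and 2904 UMIs in hashtags 1, 2 and 3, and transcripts of a dissociation stress list ranged from 1287 to 2567 CPM over these samples and from 804 to 4234 CPM in macrophages. Their part in the differences was not tested.

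**Figure D4:**
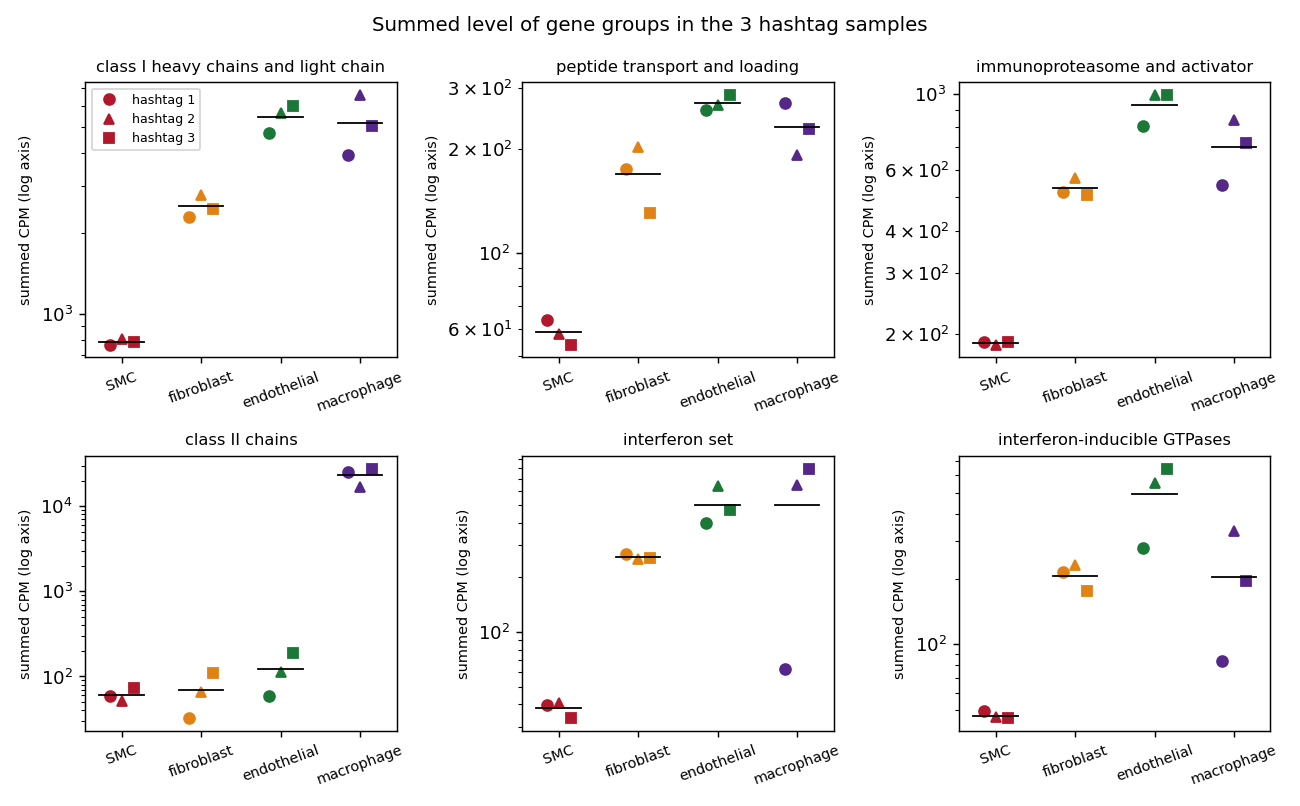
Summed level of 5 gene groups and of the 10 interferon-induced genes (titled interferon set) in the 3 hashtag samples of each cell group, in CPM on a log axis; symbols are hashtags and lines are means of 3. The SMC samples lie together at the bottom of most panels, and macrophages of hashtag 1 fall to 62.8 CPM for the interferon-induced genes.

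Endothelial barcodes were divided by vessel marker. Vwf without Gpihbp1 marked 60 barcodes (median 4612 UMIs), and Gpihbp1, a protein of capillary endothelium, without Vwf marked 587 (median 2450). The intervals of 24 genes overlapped. Of the 8302 genes tested, 10.5% had a higher interval in the Vwf barcodes and 8.84% in the Gpihbp1 barcodes. In the set, 6 were higher in the Vwf barcodes, namely H2-K1, H2-D1 and all 4 class II chains: Cd74 stood at 234 CPM (187 to 290) against 40.2 (31.6 to 50.5). A class II UMI was found in 33 of the 60 (55.0%) and 89 of the 587 (15.2%). Without the 3 barcodes in each subset that held 10 or more, the class II level was still 313 CPM (254 to 381) against 56.3 (46.0 to 68.3). Lyve1, a marker of lymphatic endothelium, was at 144 CPM in the Vwf barcodes and 54.9 in the others. Another 11 genes were higher in the Gpihbp1 barcodes, among them B2m (2517 against 1612 CPM), Bst2 (773, 733 to 814, against 319, 263 to 384), Isg15 (105, 90.6 to 121, against 19.8, 7.94 to 40.7) and Ly6e (1185 against 692 CPM).

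The hashtag antibodies themselves bind the class I complex and CD45, the product of Ptprc, as commonly supplied for mouse cells. The median number of hashtag UMIs was 672 in SMC, 660 in fibroblasts, 1238 in endothelial cells and 1548 in macrophages, and 704 in barcodes with fewer than 500 genes. SMC and fibroblasts lay beside the background, although fibroblasts held more class I and B2m transcripts per barcode (mean 11.5 UMIs) than SMC (5.56); endothelial cells held 18.8 and macrophages 17.9. A single hashtag was called for 20.9% of SMC and 20.3% of fibroblasts, against 74.8% of endothelial cells and 78.4% of macrophages. In SMC, H2-K1 was 154 CPM (147 to 161) with a single hashtag and 134 (130 to 138) with none. In endothelial cells the 23 barcodes with no hashtag had 450 CPM (315 to 623), against 1399 (1345 to 1455) with one. Between SMC with and without a single hashtag, 11 of the 41 genes had a higher interval with the hashtag and 0 a lower one, against 3.14% and 1.14% of the 8302 genes tested. In fibroblasts 6 were higher and 3 lower (all genes 2.91% and 1.87%). In fibroblasts H2-K1 was 565 CPM with a single hashtag and 465 with none. Ptprc was 6.52 CPM (5.08 to 8.24) in SMC with a single hashtag and 1.27 (0.916 to 1.72) with none. In fibroblasts it was 3.41 (1.11 to 7.95) and 1.32 (0.485 to 2.87). Neutrophil markers ranged from 2.45 to 76.0 CPM over the SMC hashtag samples, against 15.1 in all SMC. The tested SMC and fibroblast samples were thus drawn from barcodes with more H2-K1, and in SMC more Ptprc, than those without a hashtag. The part of this in the fold changes was not tested.

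**Figure D5:**
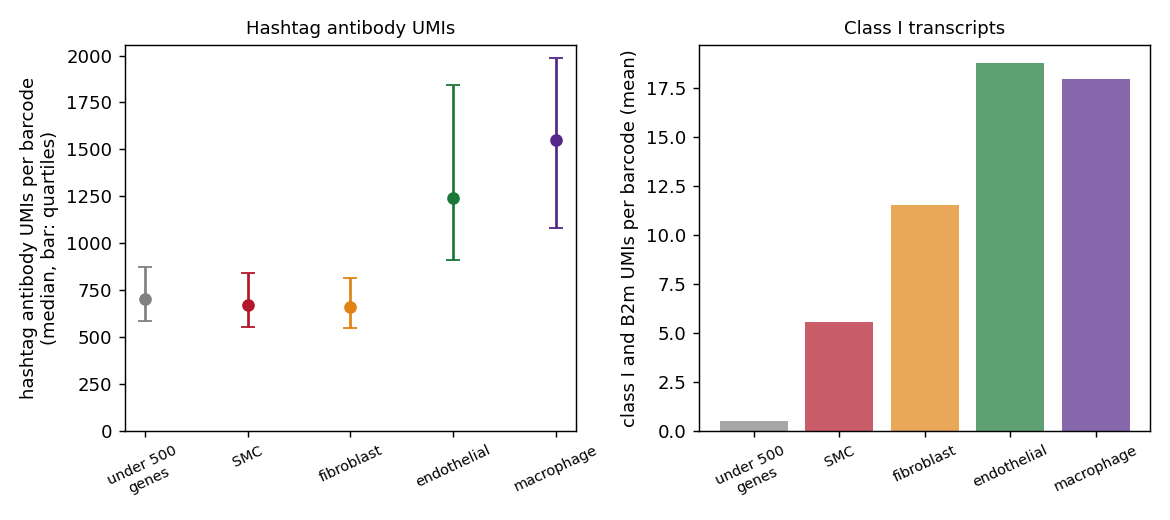
Left, hashtag antibody UMIs per barcode (median with quartiles) and right, mean UMIs of the class I heavy chains and B2m per barcode, in barcodes with fewer than 500 genes and the 4 cell groups. Hashtag UMIs of SMC (672) and fibroblasts (660) lie beside the background (704), while class I transcripts rise from SMC (5.56) over fibroblasts (11.5) to endothelial cells (18.8).

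Other genes of the pathway came from lists chosen by function, with earlier results of these data known. Their counts are therefore not independent of the data. Of 43 further interferon-induced genes, 30 could be tested: 24 were higher in fibroblasts than in SMC and 30 in endothelial cells than in SMC, with 0 lower in both (median log2 2.30 and 3.44; all genes 20.9% and 26.1% higher). Between endothelial cells and fibroblasts, 16 were higher and 5 lower, where 18.6% and 19.4% of all genes were. Oasl2, an oligoadenylate synthetase-like gene, was lower in endothelial cells (-1.38 ± 0.31), whereas Xaf1 was higher (1.01 ± 0.24). Of 10 tested receptors and kinases, 6 were higher and 1 lower in fibroblasts than in SMC, and 7 higher and 1 lower in endothelial cells than in SMC. Ifngr1, the ligand-binding chain of the interferon gamma receptor, was 2.02 ± 0.16 higher in fibroblasts and 2.62 ± 0.14 higher in endothelial cells than in SMC. Ifngr2, the other chain of that receptor, was the 1 lower gene in both comparisons, at -0.72 ± 0.19 and -1.14 ± 0.19. The class I chaperones Calr and Canx were lower in endothelial cells than in fibroblasts, by -1.07 ± 0.12 and -0.65 ± 0.13. No interferon gene could be tested: Ifnb1 had 10 UMIs in 3 macrophage barcodes, 8 of them in hashtag 3, and 4 UMIs in the other groups together.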

How the data were processed

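Per the labels' protocols, cells of ascending thoracic aortas were loaded for droplet 3′ libraries, and the submitters' processing notes name Cell Ranger, Seurat 4.0.5 and the build mm10. The authors deposited 1 sparse matrix of UMI counts, with genes and hashtags as rows and no normalization. Its header names Cell Ranger 6.0.1, and the gene annotation used there was not known here. The 41 genes and all lists were chosen with earlier results of these data known.

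Cell groups were set by the marker rules given above, barcodes in more than 1 group were dropped as possible doublets, and no doublet caller was run. Hashtags were called with HTODemux (Seurat 5.3.0, centred log ratios per hashtag, quantile 0.99). Counts were summed per hashtag and group (at least 10 barcodes) and tested with edgeR 4.0.16 (quasi-likelihood, TMM, filterByExpr, hashtag as a block, Benjamini-Hochberg over all genes tested, called at an adjusted p under 0.05), with all 4 groups in 1 fit. CPM by hashtag are per 1000000 UMIs of the sum, without TMM. On simulated data, 4-fold changes were recovered for 92% of genes between fibroblasts and SMC and 95% between endothelial cells and SMC. The share was 88% between endothelial cells and fibroblasts and 44% between macrophages and endothelial cells. For 2-fold changes the shares were 63%, 65%, 62% and 10%, so a gene not called in the last comparison can still differ. Of the genes called, 3.73%, 2.44%, 3.23% and 8.47% were false in the same order. The simulation gave all genes 1 common spread and held no difference between animals. A fold change is given for genes with an adjusted p under 0.05, and otherwise only beside the words not called. Alternatives were DESeq2 1.42.0, other size factors, filters, gates and hashtag calls, a limit on smooth muscle transcripts, and leaving out each hashtag. Samples of the same hashtag were paired between groups because each hashtag was read as 1 animal. Deviations of same-hashtag samples from their group means correlated at 0.0047 to 0.0528 over 5537 genes. For samples of different hashtags the range was -0.0419 to 0.0128, so the ranges overlapped and the pairing was weak.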

Additional observations from a re-analysis of the deposited data

Results flagged for a closer look

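Isg15 and Irf7 were present in barcodes outside the cell groups. In 2636 barcodes whose UMIs were at least 50% haemoglobin, Isg15 reached 91.0 CPM (83.1 to 99.4) from 490 UMIs and Irf7 14.7 CPM (11.6 to 18.3) from 79 UMIs. Among the UMIs of those barcodes that were not haemoglobin, Isg15 was 241 CPM (220 to 263), against 5.86 CPM over the UMIs of SMC and 88.8 CPM in endothelial cells. In barcodes with fewer than 500 genes and less haemoglobin, Isg15 was 66.8 CPM (51.4 to 85.3) of the UMIs that were not haemoglobin. On the same scale Ifit1 was 10.3 CPM (6.39 to 15.8) in the haemoglobin-rich barcodes, against 3.95 in SMC and 44.8 in endothelial cells, and Ifit3 was 3.93 CPM (1.70 to 7.75), against 4.61 and 35.3. Isg20, an interferon-induced exonuclease, stood at 471 CPM (453 to 490) of all their UMIs. These barcodes entered no comparison between the groups, and no explanation was tested.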

How the results depend on the processing

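In the alternatives in which they could be tested, 33 of 37 called genes kept their call between endothelial cells and SMC, 23 of 32 between fibroblasts and SMC, 8 of 16 between macrophages and endothelial cells and 11 of 25 between endothelial cells and fibroblasts; of these, 29, 22, 7 and 11 were tested in every alternative run for that comparison. Without the hashtag as a replicate block, the counts higher and lower were 31 and 0 for fibroblasts against SMC, 35 and 1 for endothelial cells against SMC, 23 and 1 for endothelial cells against fibroblasts and 5 and 11 for macrophages against endothelial cells. Another alternative kept fibroblast, endothelial and macrophage barcodes with under 0.5% of UMIs in Acta2, Tagln and Myh11. It gave 31 higher and 0 lower for fibroblasts against SMC, and 36 and 1 for endothelial cells against SMC. Endothelial cells against fibroblasts gave 22 and 1, and macrophages against endothelial cells 5 and 11. With hashtags called by ratio, 1 gene was lower in fibroblasts than in SMC, 0 were lower in endothelial cells than in fibroblasts, and H2-Eb1 between endothelial cells and SMC turned to -0.022 (log2). With the stricter cell filter, 13 genes were higher in endothelial cells than in fibroblasts, Psmb10 turned to -0.10 (log2) there, 2 genes were highest in fibroblasts, and barcodes with 3 or more interferon-induced genes made up 12.0% of fibroblasts, 21.6% of endothelial cells and 35.3% of macrophages. Stricter gates gave 3 genes lower in endothelial cells than in fibroblasts and 4 genes highest in fibroblasts, and no filter on low counts gave 0 lower. Leaving out 1 hashtag gave 0 to 1 genes lower for endothelial cells against SMC, 12 to 21 higher and 0 to 1 lower against fibroblasts, and 6 to 12 lower for macrophages against endothelial cells; the lowest values came without hashtag 3. The causes were not tested. Macrophages could not be fitted under the stricter cell filter, which left 2, 5 and 5 barcodes. Relative log expression size factors moved the median of all genes between macrophages and endothelial cells from -0.28 to -0.22. The macrophage sums held 15 to 27 barcodes each, which limits the depth of that comparison.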
